A study of Homo sapiens with 10 samples.

Results

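The genes described here are the 3 D-type cyclins CCND1, CCND2 and CCND3, the 4 INK4 inhibitors CDKN2A, CDKN2B, CDKN2C and CDKN2D, the CIP/KIP inhibitors CDKN1B and CDKN1C, and RB1. They were taken by symbol from the deposited count table and make up 10 of its 58735 genes. Of the 10, 7 had enough counts for a test, CCND2 had a count in 1 library, and CDKN2A and CDKN2B had 0 counts in all 10 libraries.

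The libraries came from CH157-MN, a single established human meningioma cell line. One group of 5 libraries (ADC) came from cells harvested 3 days after 100 nM of an antibody-drug conjugate, in which a humanised antibody against human SSTR2 carries the auristatin MMAF, an inhibitor of tubulin polymerisation. The other 5 libraries (PBS) came from cells given phosphate-buffered saline, for which the labels state no day of harvest. None of the 10 libraries holds the antibody without MMAF or MMAF alone. Whether the 5 replicates of a group were grown as separate cultures is not stated in the labels, so a p-value here reflects the scatter among these 10 libraries alone, and that scatter may be technical. In bulk RNA, fewer cells of a kind and less RNA of a gene per cell cannot be told apart.

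D-type cyclins bind the kinases CDK4 and CDK6 in G1, and the active kinases phosphorylate the retinoblastoma protein RB1, which releases E2F factors to transcribe genes of DNA replication. INK4 proteins bind CDK4 and CDK6 and keep the D cyclins off, while CIP/KIP proteins bind cyclin-kinase complexes, cyclin E with CDK2 in particular. Loss of the CDKN2A and CDKN2B locus is known in aggressive meningioma. D cyclins and CDKN1B are also set by protein degradation, which RNA counts do not show.

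Deposited counts summed to 28638057 to 36463724 per ADC library and 28262162 to 34473795 per PBS library. Mitochondrial genes took 1.30% to 2.11% of counts in ADC libraries and 1.19% to 2.63% in PBS libraries. Levels are given as CPM, counts scaled to library depth with TMM factors, and the groups lay apart on the first principal component of their log2 values, which took 24.3% of the variance. The gene of the antibody's target, SSTR2, was barely detected, with 10 to 20 counts per ADC library and 3 to 22 per PBS library. It had 0.429 ± 0.103 CPM in ADC libraries and 0.297 ± 0.263 CPM in PBS libraries (SD, n = 5 each; log2 fold change 0.54, SE 0.50, adjusted p = 0.50). That fold depended on PBS replicate 3, without which it was 1.205 (adjusted p = 0.12), and over the fits that each leave out 1 library it ran from 0.30 to 1.205 with no call. Of 16 meningioma and arachnoid markers 12 had a count, led by VIM, and PGR, DSC2, S100B and SLC6A13 were at 0 in every library. Their summed level was 4028 to 4169 CPM in ADC libraries and 3833 to 4126 CPM in PBS libraries. Most of it was VIM, which many cell types express, at a mean of 3535 CPM in ADC and 3395 CPM in PBS. CLDN11, DSG2, NF2, ZIC1 and FOXC1 were also present. MUC1, CRABP2, PTGDS, DSP and CDH1 had a count but averaged at most 0.701 CPM in either group. With the markers split in this way, they do not by themselves establish the cells as meningioma. CLDN11 was called lower, at 364 ± 7.4 CPM in ADC and 389 ± 6.7 CPM in PBS.

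In the comparison of ADC with PBS, 3 of the 7 tested genes fell (CCND1, CCND3 and CDKN2C), 2 rose (CDKN2D and CDKN1C), and CDKN1B and RB1 did not pass the test. Of all 14504 genes tested with edgeR's quasi-likelihood test, 20.8% passed at a Benjamini-Hochberg adjusted p under 0.05, 10.8% higher in ADC and 10% lower. The ADC and PBS libraries did not overlap for 5 of the 7 genes, against 14.2% of all genes tested. The median log2 fold change of all tested genes was -0.00, and the median size among called genes was 0.23. Changes of the D cyclins were smaller than that median, those of CDKN2C and CDKN2D were somewhat larger, and CDKN1C had the largest of the 7.

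**Figure D1:**
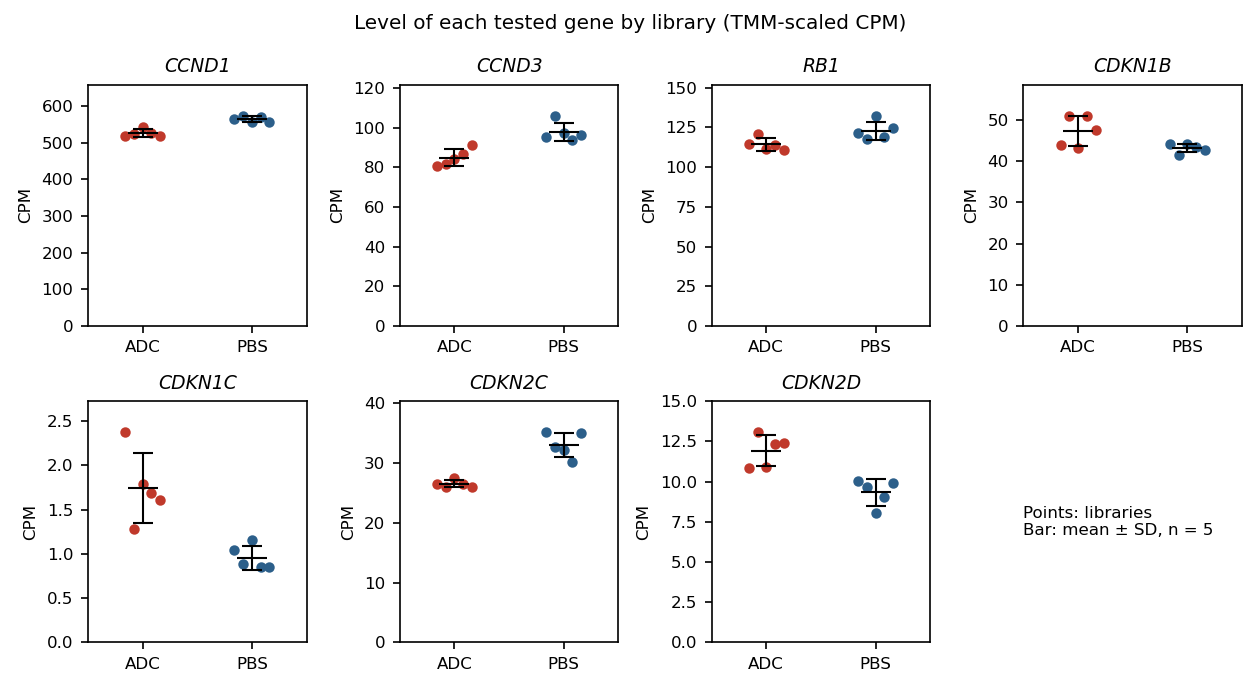
TMM-scaled CPM of the 7 tested genes, 1 panel per gene with its own linear axis from 0, ADC libraries in red and PBS libraries in blue, with the mean and SD of 5 libraries. The groups do not overlap for CCND1, CCND3, CDKN1C, CDKN2C and CDKN2D, and they overlap for RB1 and CDKN1B.

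CCND1 (ENSG00000110092, chr11:69641087-69654474, plus strand, hg38) encodes cyclin D1, the D cyclin that growth factor signalling induces in many tissues. It had 518, 522, 543, 525 and 518 CPM in ADC replicates 1 to 5, against 563, 572, 556, 569.9 and 556 CPM in PBS replicates 1 to 5. Every ADC library lay below every PBS library. The means were 525 ± 10.6 CPM in ADC and 563 ± 7.8 CPM in PBS (SD, n = 5 each). The log2 fold change was -0.10 (SE 0.03, adjusted p = 0.011), so CCND1 fell by 6.74%. It was one of the most abundant transcripts of these cells: per kilobase of exon its PBS level exceeded that of 98.1% of the 15489 protein-coding genes with a count. The counting strand is not known, and 10.3% of the exonic bases of CCND1 are shared with LTO1 on the other strand.

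CCND3 (ENSG00000112576, chr6:41934933-42050357, minus strand) encodes cyclin D3, which acts in the same complexes. It had 80.9, 81.7, 84.1, 86.9 and 91.5 CPM in the ADC libraries and 95.5, 106, 97.6, 93.8 and 96.5 CPM in the PBS libraries. The groups did not overlap, and the closest pair was ADC replicate 5 and PBS replicate 4. CCND3 fell by 0.20 (SE 0.04, adjusted p = 0.00069), with means of 85.0 ± 4.3 CPM in ADC and 97.9 ± 4.7 CPM in PBS. CCND2 (ENSG00000118971, chr12:4273772-4305350, plus strand), the third D cyclin, had 4 counts in ADC replicate 4, or 0.137 CPM, and 0 in the other 9 libraries. The 0 of 160369574 counts in the PBS libraries allows a level of up to 0.0187 CPM, which covers counting error only. CCND2 was therefore not tested and no fold is given. The pseudogenes CCND2P1, CCND3P1 and CCND3P2 also had 0 counts in every library.

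The tests used no promoter data, and promoter letters are shown only so that the called genes can be placed beside their sequence. RefSeq windows of the 250 bases before a transcript start (GRCh38.p14) were found for 7 of the 10 genes, 12 windows in all. CCND1, CCND2 and CDKN1C had none in the table used. Each window was searched on both strands for 4 motifs. They were the E2F element TTCCCGCC, the GC box with the letters GGGCGG, the CCAAT box, and TGACGT as the core of the cyclic AMP response element. An E2F element can overlap a GC box. Among 35116 such windows, 2.72% hold the E2F element, 42.6% a GC box, 32.0% CCAAT and 7.10% the TGACGT core. A match is a description of letters, not a bound site. The window of CCND3 with the highest GC content (chr6:42048689-42048938, minus strand, 74.4% GC) follows 5′ to 3′, with its 5 GC boxes of either strand in capitals.
CCND3: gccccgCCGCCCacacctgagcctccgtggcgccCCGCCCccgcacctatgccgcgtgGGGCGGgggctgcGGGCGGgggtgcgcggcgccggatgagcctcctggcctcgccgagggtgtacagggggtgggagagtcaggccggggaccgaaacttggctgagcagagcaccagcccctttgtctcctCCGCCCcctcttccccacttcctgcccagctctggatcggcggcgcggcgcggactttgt

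On the scale of CPM per kilobase of exon, CCND1 made up 88.1 ± 0.6% of the summed D cyclins in ADC libraries and 87.4 ± 0.5% in PBS libraries. With the longest transcript as the length, its share was 77.5 ± 1.0% in ADC and 76.2 ± 0.8% in PBS, because the exons of CCND3 sum to 5802 bases while its longest transcript has 2394. The summed level of the D cyclins was 121 to 127 CPM per kilobase in ADC and 132 to 137 CPM per kilobase in PBS, without overlap. CDK4 and CDK6 summed to 89.0 ± 1.2 CPM per kilobase in ADC and 102 ± 2.0 CPM per kilobase in PBS.

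**Figure D2:**
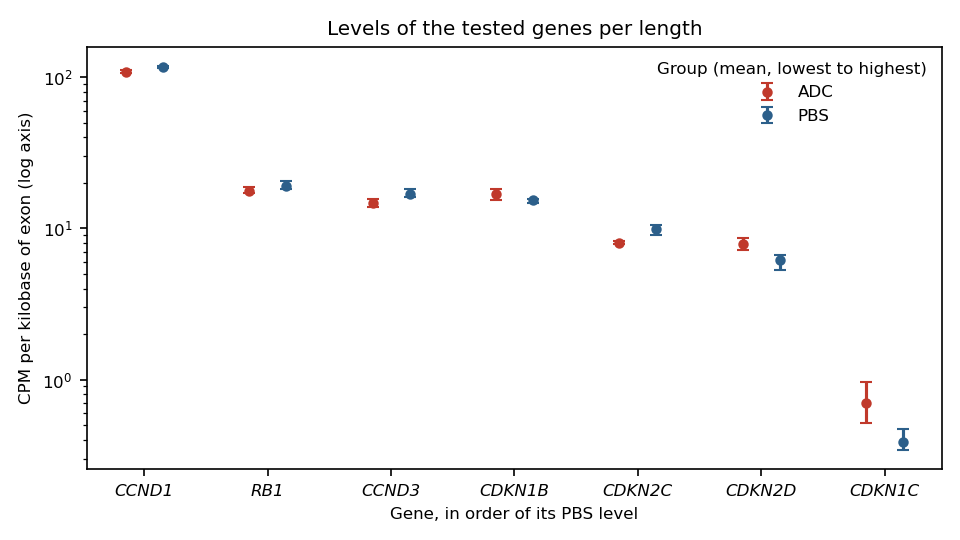
Levels of the 7 tested genes in CPM per kilobase of exon, log axis, in the order of their PBS level, with points at the mean and bars from the lowest to the highest of 5 libraries, ADC in red left of PBS in blue. CCND1 stands above all others at 109 in ADC and 117 in PBS, and CDKN1C lies lowest at 0.705 in ADC and 0.386 in PBS.

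In PBS libraries the order of levels per kilobase was CCND1, RB1, CCND3, CDKN1B, CDKN2C, CDKN2D and CDKN1C. CCND1 was 6.12 times RB1, the next gene. RB1 and CCND3 overlapped between libraries in PBS and did not in ADC. CCND3 and CDKN1B, and likewise CDKN2C and CDKN2D, did not overlap in PBS and overlapped in ADC. CDKN1C lay 16.1-fold below CDKN2D in PBS. With the longest transcript as the length CCND3 had 35.5 CPM per kilobase in ADC and 40.9 in PBS, above RB1 at 23.9 in ADC and 25.7 in PBS, so the order of these neighbours depends on the length used.

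The INK4 genes split into a pair with no counts and a pair that moved in opposite directions. CDKN2C (ENSG00000123080, chr1:50960745-50974633, plus strand) encodes p18INK4c, and CDKN2D (ENSG00000129355, chr19:10566462-10569059, minus strand) encodes p19INK4d, both inhibitors of CDK4 and CDK6. Their promoter windows are set side by side, since these genes carry the opposed changes. The CDKN2C window is the most GC-rich of 3 (chr1:50968456-50968705, plus strand, 77.2% GC), and the CDKN2D window is the single one in the table (chr19:10568980-10569229, minus strand, 67.6% GC). Capitals mark the E2F element (as GGCGGGAA, the other strand) and 5 GC boxes in CDKN2C, and 2 GC boxes and 1 CCAAT in CDKN2D.
CDKN2C: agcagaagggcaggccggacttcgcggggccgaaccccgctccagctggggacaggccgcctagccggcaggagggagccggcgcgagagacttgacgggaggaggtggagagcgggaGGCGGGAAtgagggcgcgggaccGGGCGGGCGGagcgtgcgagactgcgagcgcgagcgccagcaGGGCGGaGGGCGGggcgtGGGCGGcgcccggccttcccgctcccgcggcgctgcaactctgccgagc
CDKN2D: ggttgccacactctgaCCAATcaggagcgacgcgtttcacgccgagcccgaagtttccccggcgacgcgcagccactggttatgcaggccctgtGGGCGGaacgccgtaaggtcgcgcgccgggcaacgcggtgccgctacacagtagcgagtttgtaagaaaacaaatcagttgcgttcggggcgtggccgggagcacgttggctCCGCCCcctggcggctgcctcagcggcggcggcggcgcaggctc

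CDKN2C had 26.5, 26.1, 27.5, 26.5 and 26.0 CPM in the ADC libraries, against 35.1, 32.6, 32.2, 30.2 and 34.9 CPM in the PBS libraries. The ADC libraries lay close together and all below PBS. The means were 26.5 ± 0.6 CPM in ADC and 33.0 ± 2.1 CPM in PBS, which gave a log2 fold change of -0.32 (SE 0.06, adjusted p = 0.00022), or -19.7%. This was the strongest fall of the 7 genes. The other 2 CDKN2C windows hold no E2F element and 1 TGACGT core each.

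CDKN2D had 10.9, 13.1, 10.9, 12.3 and 12.4 CPM in the ADC libraries and 10.04, 9.66, 8.03, 9.05 and 9.88 CPM in the PBS libraries. All ADC libraries lay above all PBS libraries, by the smallest margin between ADC replicate 1 and PBS replicate 1. CDKN2D rose by 0.35 (SE 0.10, adjusted p = 0.0081), or 27.5%, with means of 11.9 ± 1.0 CPM in ADC and 9.33 ± 0.82 CPM in PBS.

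Because the 2 genes moved in opposite directions, the sum of INK4 transcripts per kilobase of exon hardly differed while its makeup did. This depends on the scale. In CPM not divided by length, the fall of CDKN2C (33.0 in PBS, 26.5 in ADC) was larger than the rise of CDKN2D (9.33 in PBS, 11.9 in ADC). Per kilobase, the INK4 genes summed to 15.9 ± 0.5 CPM in ADC and 16.2 ± 1.1 CPM in PBS, and the libraries overlapped. CDKN2D made up 47.5%, 52.5%, 46.7%, 50.6% and 51.3% of that sum in ADC replicates 1 to 5, against 38.7%, 39.5%, 35.5%, 39.8% and 38.4% in PBS replicates 1 to 5. The shares did not overlap and averaged 49.7 ± 2.5% in ADC and 38.4 ± 1.7% in PBS. They restate the changes of CDKN2C and CDKN2D given above and were not tested again.

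CDKN2A (ENSG00000147889, chr9:21967753-21995301, minus strand), which encodes p16INK4a and, from another reading frame, the p53 regulator p14ARF, had 0 counts in all 5 ADC and all 5 PBS libraries. CDKN2B (ENSG00000147883, chr9:22002903-22009363, minus strand), which encodes p15INK4b, likewise had 0 counts in every library. The 0 of 322235349 counts allows a level of up to 0.00931 CPM over the 10 libraries, for counting error only. A count of 0 in every library is not rare in itself: 22.4% of 19951 protein-coding genes in the table had none.

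The zeros extended to the neighbouring genes. In order of position, 11 consecutive genes around CDKN2A had no count in any library, from base 21892188 to base 22214672 of chromosome 9. They include the antisense RNA CDKN2B-AS1 and the divergent transcript CDKN2A-DT, and CDKN2A and CDKN2B are the 2 protein-coding genes among them. Genes were ordered by their start. The protein-coding gene AL359922.1, which shares exonic bases with CDKN2B-AS1, starts before the run and also had 0 counts in every library. Of 10896 runs of genes at 0 in the whole table, 389 were at least as long. The nearest protein-coding genes with counts were MTAP, a methionine salvage enzyme, on the left and DMRTA1, a transcription factor gene, on the right, with 509189 bases between the end of MTAP and the start of DMRTA1. MTAP ends at base 21937651, so it overlaps the left part of the run.

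MTAP had 109 to 208 counts per ADC library and 136 to 179 per PBS library, or 0.330 CPM per kilobase in ADC and 0.340 in PBS. The exons of MTAP sum to 14617 bases while its longest transcript has 7557, so its level per kilobase depends on the length used. DMRTA1 had 42 to 80 counts per ADC library and 24 to 65 per PBS library, or 0.354 CPM per kilobase in ADC and 0.274 in PBS. To the left of MTAP, the interferon gene IFNE had 2 to 10 counts per ADC library and 0 to 12 per PBS library. Farther to the left, KLHL9 had 8.57 CPM per kilobase in ADC and 8.53 in PBS, FOCAD 7.17 in ADC and 7.14 in PBS, and HACD4 1.61 in ADC and 1.69 in PBS, while the interferon gene IFNB1 was at 0. Among the 10 genes listed as neighbours 5 were tested, and none was called by edgeR, DESeq2 or limma-voom, with 0 at an unadjusted p under 0.05. The MTAP log2 fold change was -0.04 (SE 0.14, adjusted p = 0.89). DNA was not measured, so a deleted, a silenced and an undetected gene cannot be told apart here.

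**Figure D3:**
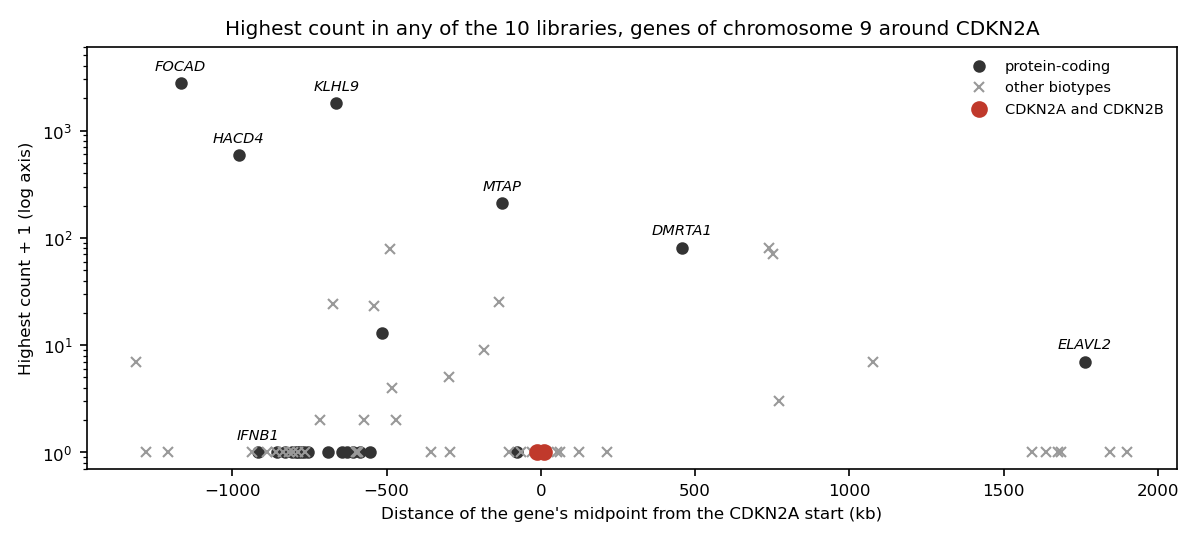
Highest count plus 1 in any of the 10 libraries (log axis) for each gene of chromosome 9 around CDKN2A, placed by the distance of its midpoint from the start of CDKN2A in kilobases, with protein-coding genes as dots, other biotypes as crosses, and CDKN2A and CDKN2B in red. Both red points lie at 0 counts, and no point between those of MTAP on the left and DMRTA1 on the right has a count. Points are midpoints, and the gene MTAP itself reaches into that stretch.

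CDKN1C (ENSG00000129757, chr11:2883213-2885773, minus strand) encodes p57KIP2, a CIP/KIP inhibitor whose gene is imprinted. It had 82, 47, 61, 49 and 46 counts in the ADC libraries and 35, 30, 34, 24 and 29 counts in the PBS libraries, or 2.37, 1.28, 1.78, 1.68 and 1.61 CPM in ADC and 1.04, 0.889, 1.16, 0.848 and 0.853 CPM in PBS. The groups did not overlap, with ADC replicate 1 the highest and ADC replicate 2 nearest to PBS. CDKN1C rose by 0.87 (SE 0.27, adjusted p = 0.019), with means of 1.75 ± 0.40 CPM in ADC and 0.957 ± 0.136 CPM in PBS. Without ADC replicate 1 the log2 fold change was 0.73 and the call was lost (adjusted p = 0.082, against 0.0087 to 0.082 over all 17 alternatives). Its level was low, above 31.5% of the protein-coding genes with a count per kilobase in PBS.

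Marker genes of other cell types were mostly low, and the endothelial sum lay higher in every ADC library than in any PBS library. The 6 endothelial markers all had a count and summed to 3.30 to 4.87 CPM in ADC libraries and 1.48 to 2.996 CPM in PBS libraries. PECAM1 was called higher, at a mean of 1.98 CPM in ADC and 0.576 CPM in PBS. KDR (1.49 CPM in ADC, 1.51 CPM in PBS) and VWF were not called. Of 15 leukocyte markers 9 had a count, with sums of 2.10 to 3.08 CPM in ADC and 0.579 to 2.64 CPM in PBS, and CD3E, CD3D and NKG7 were among those at 0. The 5 epithelial markers, 4 with a count and KRT5 at 0, summed to 215 to 227 CPM in ADC and 209 to 239.6 CPM in PBS. Most of that sum was KRT18, at a mean of 208 CPM in ADC and 216 CPM in PBS. Of the 5 neural and glial markers 3 had a count, with OLIG2 and RBFOX3 at 0 and SNAP25 called higher. They summed to 52.8 to 57.1 CPM in ADC and 50.5 to 58.7 CPM in PBS. Most of that was MBP, at a mean of 53.7 CPM in ADC and 53.4 CPM in PBS. The part of these markers in the CDKN1C and CDKN2D results was not tested.

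CDKN1B (ENSG00000111276, chr12:12715058-12722371, plus strand) encodes p27KIP1, the CIP/KIP inhibitor of cyclin E with CDK2. It had 44.0, 50.8, 43.1, 50.9 and 47.6 CPM in the ADC libraries and 44.1, 41.6, 44.2, 43.4 and 42.7 CPM in the PBS libraries. ADC replicates 2, 4 and 5 lay above every PBS library, and ADC replicates 1 and 3 lay among them. The log2 fold change was 0.13 (SE 0.05, 95% interval 0.02 to 0.24) and did not pass the test over all genes (adjusted p = 0.086). It passed without ADC replicate 3 (adjusted p = 0.040) and with scaling to library size alone (adjusted p = 0.047), with adjusted p-values from 0.040 to 0.22 over the 17 alternatives. CDKN1A, which encodes p21CIP1, the CIP/KIP inhibitor that p53 induces, rose by 0.21 (SE 0.05, adjusted p = 0.0057), to 52.5 ± 4.4 CPM in ADC against 45.4 ± 1.7 CPM in PBS.

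Together the 3 CIP/KIP genes summed to 34.8 ± 1.5 CPM per kilobase in ADC and 30.6 ± 0.7 CPM per kilobase in PBS. CDKN1B made up 48.4 ± 3.5% of that sum in ADC and 50.2 ± 0.9% in PBS, and CDKN1C 2.03 ± 0.47% in ADC and 1.26 ± 0.18% in PBS. CDKN1C was thus a minor CIP/KIP transcript in both groups.

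RB1 (ENSG00000139687, chr13:48303726-48599436, plus strand) had 115, 121, 112, 114 and 111 CPM in the ADC libraries and 121, 118, 132, 119 and 124 CPM in the PBS libraries. ADC replicates 1, 3, 4 and 5 lay below every PBS library, and ADC replicate 2 lay among them. The log2 fold change was -0.10 (SE 0.04, 95% interval -0.18 to -0.03) and just missed the threshold (adjusted p = 0.052), with means of 114 ± 4.0 CPM in ADC and 123 ± 5.8 CPM in PBS. With DESeq2 it passed (adjusted p = 0.040), as it did without ADC replicate 2, PBS replicate 2 or PBS replicate 4 (adjusted p = 0.031, 0.029 and 0.049), and over the 17 alternatives adjusted p-values ran from 0.029 to 0.20. Its relatives RBL1, the pocket protein p107, and RBL2, p130, had log2 fold changes of -0.06 (SE 0.05, adjusted p = 0.42) and 0.11 (SE 0.08, adjusted p = 0.39).

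**Figure D4:**
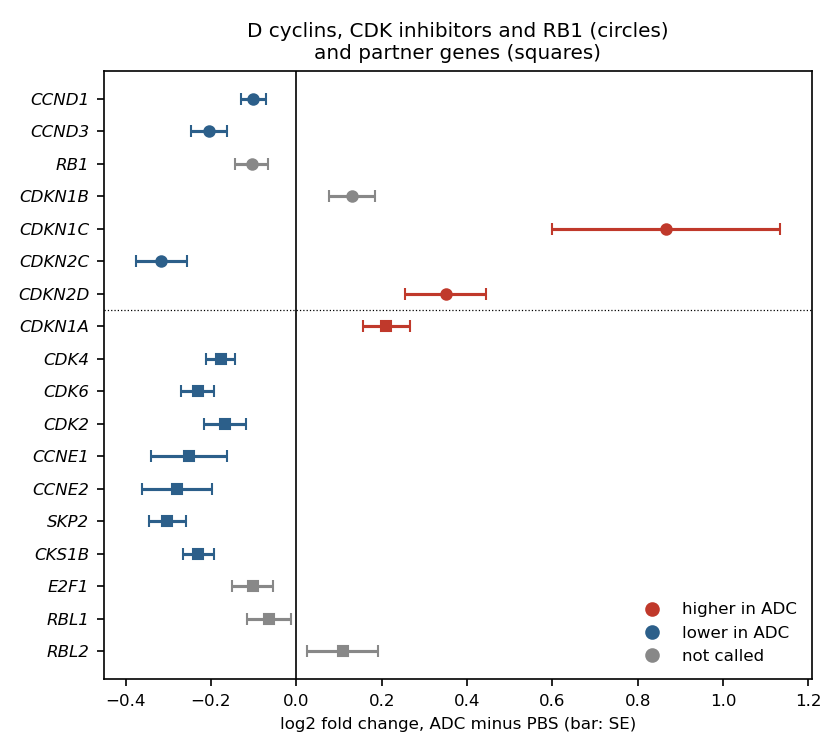
Log2 fold change, ADC minus PBS, with its SE for the 7 tested D cyclin, inhibitor and RB1 genes (circles) and for 11 partner genes (squares), coloured by whether the gene was called higher in ADC, lower in ADC or not called. CDKN1C, CDKN2D and CDKN1A lie to the right of 0, and the kinases CDK4, CDK6 and CDK2 lie to the left with CCND1, CCND3 and CDKN2C.

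The kinases that the D cyclins activate fell with them. CDK4 had 193 to 212 CPM in ADC libraries and 217 to 232 CPM in PBS libraries, a fall of 0.18 (SE 0.03, adjusted p = 0.00022), and 43.2% of its exonic bases are shared with TSPAN31 on the other strand. CDK6 had 286 to 346 CPM in ADC libraries and 357 to 389.98 CPM in PBS libraries, a fall of 0.23 (SE 0.04, adjusted p = 4.7e-05). Neither overlapped between the groups. The list of G1 and S kinases and their cyclins had 8 of 18 tested genes lower in ADC and 1 higher, CDKN1A. Among all genes tested, 10% were lower and 10.8% higher. The list had a median log2 fold change of -0.13. CDC25A, the phosphatase that activates CDK2, fell by 0.32 (SE 0.04, adjusted p = 4.4e-07), to 94.1 ± 4.3 CPM in ADC against 117 ± 3.6 CPM in PBS. CDKN3, a phosphatase of CDK1 and CDK2, fell by 0.30 (SE 0.04, adjusted p = 3.3e-06).

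CDK2, the partner of the E cyclins, fell by 0.17 (SE 0.05, adjusted p = 0.013), CCNE1 by 0.25 (SE 0.09, adjusted p = 0.042) and CCNE2 by 0.28 (SE 0.08, adjusted p = 0.014). These calls were less stable. That of CCNE1 was lost without ADC replicate 1, 2, 3 or 5, without PBS replicate 2, 3 or 4 (adjusted p from 0.020 to 0.15 over the fits that each leave out 1 library), with library size alone and with limma-voom. That of CDK2 was lost without ADC replicate 2 or PBS replicate 3 (highest adjusted p = 0.059), and that of CCNE2 without ADC replicate 4 (adjusted p = 0.057). CCNE2 shares 37.1% of its exonic bases with AC087752.4 and INTS8 on the other strand.

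Among the RB family, E2F and DREAM genes, which RB1 and its relatives work through, 6 of 20 were lower and 0 higher by edgeR, DESeq2 and limma-voom, with 8 lower and 0 higher at an unadjusted p under 0.05. For comparison, 10% of all genes tested with edgeR were lower in ADC and 10.8% higher. The median log2 fold change of the list was -0.11. MYBL2, the MYB factor of the DREAM and MuvB complexes, fell by 0.22 (SE 0.03, adjusted p = 5.1e-06), to 268 ± 4.2 CPM in ADC against 313 ± 12.2 CPM in PBS. E2F7, an atypical E2F repressor, fell by 0.24 (SE 0.04, adjusted p = 5.9e-05), and TFDP1, the dimer partner of E2F factors, by 0.17 (SE 0.03, adjusted p = 6.6e-05). E2F1, the activator that RB1 binds, had 69.8 ± 3.6 CPM in ADC and 74.9 ± 4.7 CPM in PBS and did not pass (log2 fold change -0.10, SE 0.05, adjusted p = 0.13).

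Of 24 E2F target genes of the G1 to S step, all 24 had a log2 fold change under 0, 18 passed as lower by edgeR and DESeq2 and 17 by limma-voom, 0 passed as higher by any of them, and the median was -0.15. At an unadjusted p under 0.05, 20 were lower and 0 higher. By edgeR, 10% of all genes tested were lower and 10.8% higher, and the median log2 fold change of all genes tested was -0.00. This list shares CCNE1, CCNE2, CCNA2, CDC25A, E2F1 and RBL1 with the lists above. Like the other lists, it was chosen with earlier results of these data known, so its counts are a description. RRM2, the small subunit of ribonucleotide reductase, fell by 0.27 (SE 0.03, adjusted p = 2.5e-07), to 268 ± 9.3 CPM in ADC against 323 ± 9.9 CPM in PBS, and TK1, thymidine kinase, by 0.28 (SE 0.04, adjusted p = 3.1e-06). PCNA, MCM3, MCM5, CDC45, E2F1 and RBL1 did not pass.

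**Figure D5:**
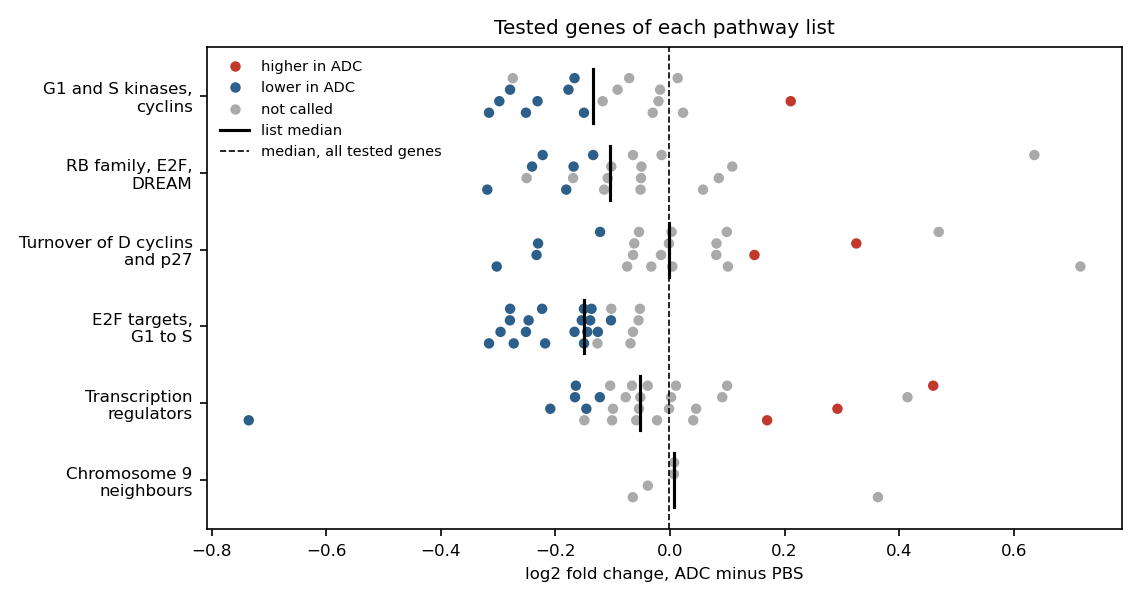
Log2 fold change, ADC minus PBS, of every tested gene of the 6 lists, 1 row per list, with genes called higher in ADC in red, lower in ADC in blue and not called in grey, the list median as a bar and the median of all tested genes as a dashed line. The E2F targets all lie left of 0, with a median of -0.15, while the turnover list is centred on the median of all genes.

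Of 21 tested genes listed for the turnover of D cyclins and of p27KIP1, 4 were lower, 2 higher and 15 not called, with a median of -0.00. The share of higher genes was near the 10.8% of all genes tested, and the share of lower genes was above their 10%. SKP2, the F-box protein that marks p27KIP1 for degradation, had 65.6 to 74.4 CPM in ADC libraries and 83.1 to 88.9 CPM in PBS libraries, a fall of 0.30 (SE 0.04, adjusted p = 4.0e-06). Its cofactor CKS1B fell by 0.23 (SE 0.04, adjusted p = 2.0e-05), and DCAF1, a substrate receptor of the CUL4 ligase, by 0.23 (SE 0.04, adjusted p = 0.00012). The 2 higher genes were RNF123, a cytoplasmic ligase for p27KIP1 (0.15, SE 0.04, adjusted p = 0.018), and FBXO4, an F-box protein for cyclin D1 (0.33, SE 0.10, adjusted p = 0.019). Without ADC replicate 1 both calls were lost (adjusted p = 0.065 and 0.057), which left 0 genes of this list higher, and without the filter on low counts FBXO4 was lost (adjusted p = 0.058).

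Of 28 transcription regulators of these genes, 6 were lower, 3 higher and 19 not called, with a median of -0.05. Here too the share of higher genes was near the 10.8% of all genes tested, and that of lower genes was above their 10%. ID1, an inhibitor of basic helix-loop-helix factors, had 22.7 to 29.1 CPM in ADC libraries and 41.9 to 45.5 CPM in PBS libraries, and its fall of 0.74 (SE 0.06, adjusted p = 1.5e-10) was the largest fall in the 6 lists. The AP-1 genes JUN and FOSL1 fell by 0.16 (SE 0.03, adjusted p = 0.00027) and 0.15 (SE 0.03, adjusted p = 0.0015). SMAD3, a mediator of TGF-beta signalling, rose by 0.29 (SE 0.04, adjusted p = 1.2e-05), to 118 ± 9.0 CPM in ADC against 96.3 ± 3.5 CPM in PBS. ETS2 rose by 0.17 (SE 0.05, adjusted p = 0.0090) and FOXO4, a forkhead factor, by 0.46 (SE 0.14, adjusted p = 0.015), the last without a call when PBS replicate 1 was left out (adjusted p = 0.055).

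For each of the 5 called genes, the protein-coding genes with the most alike log2 CPM over the 10 libraries were sought among 9623 candidates of at least 5 CPM. They were UNC5B (r = 0.99) and CDC42BPB (r = 0.96) for CDKN1C, TMUB2 (r = 0.97) and ADGRG1 (r = 0.95) for CDKN2D, and NCAPD2 (r = 0.97) and FAM83D (r = 0.97) for CDKN2C. For CCND1 they were LMNB1 (r = 0.98) and TTF2 (r = 0.98), and for CCND3 NCLN (r = 0.98) and C20orf27 (r = 0.98). All of these r are picked maxima and share the difference between the groups. With the group means removed they ran from 0.82 for FAM83D to 0.96 for UNC5B. UNC5B was itself higher in ADC, by 1.11 on the log2 scale (SE 0.15), at 10.5 CPM in ADC and 4.89 CPM in PBS.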

How the data were processed

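The authors deposited 1 table of raw whole-number counts per gene for 5 ADC and 5 PBS libraries of CH157-MN, with gene lengths, positions and biotypes, and these counts were used as deposited. Per the labels' protocols, poly(A) RNA was captured with poly-T beads, random hexamers primed the cDNA, and either strand option may apply. HISAT2, HISAT, TopHat2 and hg38 appear in the submitters' processing notes, with no role stated. Which program counted the reads, with what strand option and annotation, is not given in the sources used here. The deposited other values, the gene lengths, equalled merged exon lengths in GENCODE 29 for 58735 of 58735 genes. Even numbers made up 65.4% to 67.3% of counts between 2 and 21, but 49.0% to 50.6% of those of at least 1000, so both mates of a pair may have been counted. Intervals and limits from counts then run too narrow.

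Groups follow the treatment labels. Counts were scaled by TMM (factors 0.979 to 1.02), filtered with filterByExpr (minimum count 10, minimum total 15) and tested by quasi-likelihood in edgeR 4.0.16 under R 4.3.3, two-sided, over all 14504 genes kept, with Benjamini-Hochberg adjustment at 0.05. Adjusted p-values come from edgeR where no tool is named. Log2 fold changes are ADC minus PBS, and 95% intervals are 1.96 SE either side, unadjusted. Levels are TMM-scaled CPM, also per 1000 bases of exon. The floor for a 0 is 3 counts. No library was a repeat of another, since chi-square values per degree of freedom between pairs of a group were 5.18 to 16.5, above sampling noise. The fitting code was tested on simulated data. No batch is given in the labels.

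The members, the gene lists and the markers were chosen with earlier results of these data known. Genes named beside the members are SSTR2, a set of partners, the 3 called genes of smallest adjusted p per list and direction, and the 2 most alike genes of each called member. Alternatives were library size alone, DESeq2 1.42.0, limma-voom (limma 3.58.1), no filter, a mean of at least 1 CPM, a replicate block, halved counts, each library left out, and longest transcript lengths.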

Additional observations from a re-analysis of the deposited data

Results flagged for a closer look

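Among 73 groups of 5 libraries examined, 5 had a library far from the others, and chance gives about 1 in 20. ADC replicate 4 had 0.137 CPM of CCND2, while the other 4 ADC libraries had 0. PBS replicate 3 had 0.749 CPM of SSTR2, against 0.0883 to 0.267 CPM in the other PBS libraries, and 6.09 CPM of MTAP, against 4.56 to 4.81 CPM. PBS replicate 2 had 83.1 CPM of E2F1, against 71.8 to 74.6 CPM in the other PBS libraries. ADC replicate 1 had 9.74 CPM of FBXO4, against 8.53 to 8.86 CPM in the other ADC libraries.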

How the results depend on the processing

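CDKN2C, CDKN2D, CCND1 and CCND3 kept their direction and their call under all 17 alternatives, with adjusted p at most 0.0015, 0.029, 0.042 and 0.0036. CDKN1B was called with library size alone (log2 fold change 0.15), and its values ran from 0.10 to 0.16 over the fits that each leave out 1 library. Over those fits CDKN1C ran from 0.73 to 0.96 and RB1 from -0.124 to -0.0758, and RB1 was called with DESeq2 (-0.10). The turnover list held 1 higher gene without the filter on low counts, and 0 to 3 over the fits that each leave out 1 library. The MTAP value turned to 0.03 without ADC replicate 5 and to 0.0456 without PBS replicate 3, from -0.135 to 0.0456 over those fits, uncalled in each. The cause of these shifts was not tested. Over 39 other named genes and 661 alternatives, 643 kept direction and call, 16 lost the call and 2 changed sign.

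By construction, longest transcript lengths raised the levels per kilobase, to 122 in ADC and 131 in PBS for CCND1, 35.5 in ADC and 40.9 in PBS for CCND3, 23.9 in ADC and 25.7 in PBS for RB1, 9.13 in ADC and 11.4 in PBS for CDKN2C, 0.902 in ADC and 0.495 in PBS for CDKN1C, and 16.3 in PBS for CDKN1B. Library size alone gave 1835 genes higher and 1063 lower, so that 63.3% of calls were higher against 51.8% with TMM, at a median log2 fold change of 0.02.

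Libraries with the same replicate number did not deviate together (r from -0.01 to 0.04), and 1 of 10 correlated best with its own number. A replicate block gave 1632 higher and 1520 lower genes, with a log2 fold change of -0.31 for CDKN2C and 0.85 for CDKN1C, and changed no call among the 7 tested genes. Low depth limits genes such as CDKN1C, MTAP, SSTR2, FOXO4 and DMRTA1, which had under 300 counts per library. FBXO4 had 204 to 337 counts per library.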

Other observations

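Other cyclins and cyclin-dependent kinases, taken by their symbols after values of these data were seen, were set beside the 20.8% of all tested genes that were called. The deposited counts hold 39 such genes, of which 31 were tested. Of these, 2 were higher in ADC, 2 lower and 27 not called, with a median log2 fold change of 0.03. CDK19, a kinase of the Mediator complex, had 19.1 to 24.1 CPM in ADC libraries and 14.9 to 17.1 CPM in PBS libraries, a rise of 0.38 (SE 0.08, adjusted p = 0.00077). CDK17 rose by 0.14 (SE 0.04, adjusted p = 0.017). CCNF, an F-box protein that does not bind a kinase, had 45.4 to 51.9 CPM in ADC libraries and 55.9 to 59.1 CPM in PBS libraries, a fall of 0.24 (SE 0.05, adjusted p = 0.00031). CCNT1, the cyclin of the elongation kinase CDK9, fell by 0.17 (SE 0.05, adjusted p = 0.0079). The mitotic cyclins CCNB1 and CCNB2 had log2 fold changes of 0.04 (SE 0.04, adjusted p = 0.41) and -0.08 (SE 0.04, adjusted p = 0.19), and CCNB1 averaged 376 ± 21.1 CPM in ADC and 365 ± 9.5 CPM in PBS (SD, n = 5 each).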
